A study of Mus musculus with 24 samples.

Results

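Pregnant mice lacking C1qtnf6, the gene for the secreted placental protein CTRP6, were compared with wild type (WT) mice at gd16.5 (gd, gestation day). The comparison used the 6 libraries of that stage, 3 from WT and 3 from homozygous knockout (KO) mice on the C57BL/6 background, out of 24 libraries over 4 stages (gd19.5, gd16.5, gd14.5 and gd10.5). The KO line was made with CRISPR/Cas9 by deleting 3 exons of C1qtnf6, and homozygous animals lack the gene in all tissues. RNA came from the maternal-fetal interface (MFI), where decidua and placenta meet, and was sequenced in bulk after polyA selection. The labels name no litter, dam or fetal sex, so the p-values below measure the spread between these libraries. Genes were chosen by position in the comparison or by 34 fixed lists with 600 genes, 21 lists for tissue composition and 13 for pathways. Perforin and the granzymes were left out.

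The mouse placenta has an outer junctional zone of spongiotrophoblast, glycogen cells and trophoblast giant cells, and an inner labyrinth where maternal and fetal blood run close together. The junctional zone is the endocrine part of the placenta and secretes hormones of the expanded prolactin family and glycoproteins of the Psg and Ceacam families. The decidua is the maternal part, made of stromal cells, vessels and immune cells. In a bulk sample, fewer cells of a type and less RNA per cell cannot be told apart.

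The libraries held 22204068 to 36719360 counts, and 17071 of 55401 genes had enough counts to be tested. Levels are given as CPM, counts scaled to a common library size with TMM factors, always for KO replicates 1, 2 and 3 and then WT replicates 1, 2 and 3, and log2 fold changes are KO over WT with their standard error (SE) from edgeR. Transcripts of both sides of the interface were present in all 6 libraries, such as the spongiotrophoblast gene Tpbpa at 28451, 25223 and 25451 CPM in KO and 19458, 21404 and 15037 CPM in WT, and the decidual prolactin gene Prl8a2 at 1342, 1783 and 1873 CPM in KO and 2133, 1381 and 1989.7 CPM in WT. The 22 genes of the yolk sac endoderm, an extraembryonic layer outside the placenta, summed to 8855, 25734 and 499 CPM in KO and 9197, 463 and 491 CPM in WT. The 4 Y-linked genes summed to 177, 171 and 1.03 CPM in KO and 80.7, 0.596 and 0.437 CPM in WT. KO replicates 1 and 2 and WT replicate 1 were therefore high for both sets, while KO replicate 3 and WT replicates 2 and 3 were low. Afp, the fetal albumin of yolk sac and liver, followed the same split at 4006, 13503 and 81.4 CPM in KO and 4039, 88.2 and 35.01 CPM in WT. The part of these transcripts in the differences below was not tested, and values with the yolk sac sum as a covariate, or without those 3 libraries, are given for lists and genes that move most. Leaving out those 3 libraries leaves 1 KO and 2 WT libraries, which were fitted with the other stages, so the lone KO library is assumed to vary like the others. The yolk sac list itself had a median log2 fold change of 1.77 over 21 tested genes and the Y-linked list 2.08 over 4, and in both 0 genes reached an unadjusted p under 0.05.

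**Figure D1:**
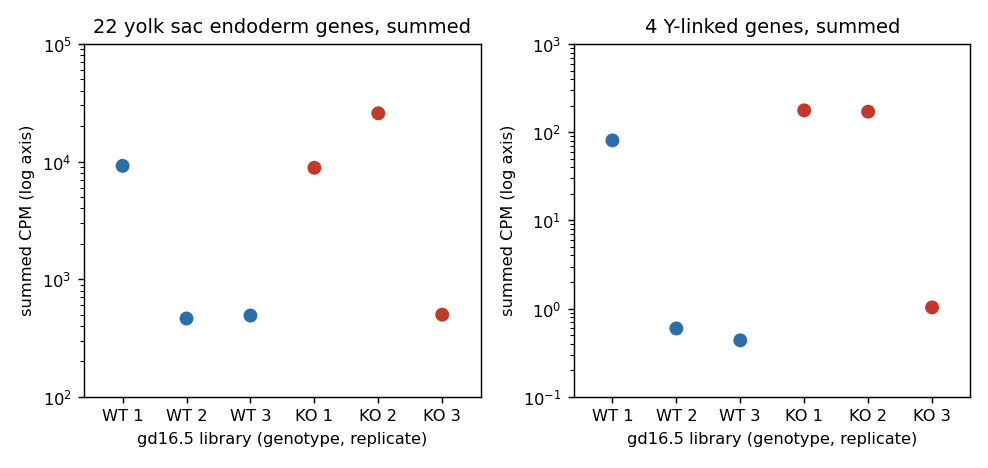
Summed CPM of 22 yolk sac endoderm genes (left) and of 4 Y-linked genes (right) in the 6 gd16.5 libraries, each point 1 library, on log axes. WT replicate 1 and KO replicates 1 and 2 stand above the other 3 libraries in both panels, from 8855 to 25734 CPM on the left against 463 to 499 CPM.

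The deleted gene C1qtnf6, at chr15:78523346-78531416 of GRCm38 on the minus strand, was read at 0.590, 0.419 and 1.86 CPM in KO and 82.5, 70.7 and 88.4 CPM in WT. Every KO library was far below every WT library. C1qtnf6 fell by 6.45 ± 0.42 (SE) on the log2 scale, with a p of 0.00975 after Benjamini-Hochberg adjustment in edgeR's quasi-likelihood test, and was the 1 gene (0.00586% of those tested) past an adjusted p of 0.05 and a 2-fold change. At an unadjusted p under 0.05, 938 genes (5.49%) were higher and 956 (5.6%) lower in KO. All KO libraries lay above all WT libraries for 1511 genes (8.85%) and below them for 1495 (8.76%). Without TMM factors, on raw library totals, the unadjusted counts were 474 higher and 2315 lower, those of genes with no overlap 735 and 3348, and the median over all genes moved from 0.01 to -0.08. DESeq2 gave an adjusted p under 0.05 for 71 higher (0.463%) and 101 lower genes (0.659%) of 15328. Of these, 13 higher and 34 lower genes were past a 2-fold change, 7 of the latter being perforin and granzymes.

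Placental prolactin family genes were, of the 34 lists, most often higher in KO. Of 24 genes of this family, 23 were tested, and their median log2 fold change was 0.63 against 0.01 over all genes. At an unadjusted p under 0.05, 17 of 23 were higher (5.49% of all genes were) and 0 lower (5.6%). In 16 of them all KO libraries were above all WT libraries (8.85%), and DESeq2 gave an adjusted p under 0.05 for 13 (0.463%). Together the family took 5.55 ± 0.07% of all counts in KO (SD, n = 3) and 4.27 ± 0.62% in WT. Its summed level was 58642, 56154 and 57028 CPM in KO and 43120.4, 46656 and 34662 CPM in WT, so that the groups did not overlap and WT replicate 3 was the lowest. With each library left out in turn the median lay between 0.49 and 0.68, and it was 0.59 with the yolk sac covariate and 0.59 without the 3 libraries that carried yolk sac transcripts.

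Prl3d1 encodes placental lactogen I, a giant cell hormone that acts on the maternal prolactin receptor, and had the largest difference of the family. Prl3d1 was read at 50.8, 56.7 and 35.02 CPM in KO and 24.3, 18.1 and 12.97 CPM in WT. All KO libraries were above all WT libraries, with KO replicate 3 the lowest of the KO group. The log2 fold change was 1.36 ± 0.25 (edgeR adjusted p = 0.334, DESeq2 adjusted p = 6.25e-06). Its near copy Prl3d2 was read below 1 CPM in all 6 libraries, at 0.454, 0.587 and 0.784 CPM in KO and 0.374, 0.318 and 0.218 CPM in WT, and 48.7% of the 100-base windows of its transcript also occur in other genes. Reads that map to several places were not counted, so the split between such copies is uncertain. For Prl3d1 the share is 26.8%.

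Prl3b1 encodes placental lactogen II, the lactogen of late pregnancy, and per exon length was the most abundant member, with a mean of 15766 RPKM (CPM per kilobase of exon) in KO and 11737 RPKM in WT. In CPM, Prl3b1 was read at 17918, 16592 and 15910.0 CPM in KO and 13287, 14183 and 10065 CPM in WT. Its KO libraries were all above its WT libraries, by 0.43 ± 0.15 on the log2 scale (edgeR adjusted p = 0.431). Prl8a6 stood at 7733, 6942 and 5433 CPM in KO and 3348, 4285 and 2575 CPM in WT. For Prl8a6 the lowest KO library exceeded the highest WT library, and the log2 difference was 0.98 ± 0.21 (edgeR adjusted p = 0.356, DESeq2 adjusted p = 0.000156).

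Proliferin genes, whose products promote growth of new vessels, were higher by similar amounts. Prl2c2 was read at 234, 249 and 246 CPM in KO and 170.2, 162 and 134 CPM in WT (log2 fold change 0.64 ± 0.10, edgeR adjusted p = 0.233, DESeq2 adjusted p = 2.08e-05). Prl2c3 differed by 0.64 ± 0.13 and Prl2c5 by 0.34 ± 0.11, again with all KO libraries above WT. Of the 100-base windows of Prl2c2 and Prl2c3, 66.4% and 62.3% recur in other genes, so the split between these copies is uncertain too. Prl7d1, the proliferin-related gene whose product opposes vessel growth, was also higher, at 1887, 1833 and 1794 CPM in KO and 1480.3, 1339 and 1189 CPM in WT (log2 fold change 0.46 ± 0.11, DESeq2 adjusted p = 0.00438). Prl4a1, whose product is known to act on uterine NK cells, stood at 87.5, 77.00 and 97.6 CPM in KO and 52.2, 63.4 and 41.9 CPM in WT (log2 fold change 0.73 ± 0.16, DESeq2 adjusted p = 0.00353).

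Spongiotrophoblast members of the family gave the same direction. Prl8a8 was read at 5495, 5909 and 6019 CPM in KO and 3832, 4324 and 3346 CPM in WT (log2 fold change 0.60 ± 0.13, DESeq2 adjusted p = 0.000196), and Prl8a9 at 10401, 9782 and 9822 CPM in KO and 6927, 7625 and 5452 CPM in WT (log2 fold change 0.58 ± 0.14, DESeq2 adjusted p = 0.00353). Both sets of libraries were apart without overlap. Prl3a1 and Prl7c1 differed by 0.91 ± 0.24 and 0.96 ± 0.20 on the log2 scale. Prl5a1 differed by 1.11 ± 0.40, but WT replicate 2, at 52.7 CPM, lay above KO replicate 3, at 47.8 CPM. Without the 3 libraries carrying yolk sac transcripts the difference of Prl5a1 was 0.41. The glycogen cell members Prl2a1 and Prl7b1 were 0.63 and 0.74 higher, with no overlap and DESeq2 adjusted p-values of 0.0127 and 0.00600. Prl7a1 was 0.64 higher on the same scale.

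The members that missed p under 0.05 were Prl3c1, Prl6a1, Prl7a2, Prl8a1, Prl8a2 and Prl2b1. Prl8a2, made mainly by decidual cells, overlapped between the groups, with a log2 fold change of -0.14 ± 0.20. Prl2b1, a labyrinth and giant cell member, was read at 5027, 4552 and 6469 CPM in KO and 5466, 6194 and 4558 CPM in WT, with a log2 fold change of -0.02 ± 0.17. The remaining 4 lay between 0.18 and 0.33 on the log2 scale. The median KO effect of the family was 0.03 at gd10.5, less than 0.01 in size at gd14.5 and -0.24 at gd19.5, and 8 of 23 members had an unadjusted p under 0.05 for a difference between gd16.5 and the mean of the other stages, against 12.8% of all genes. None of those 8 passed after adjustment. The smallest p was that of Prl7c1 (unadjusted p = 0.000246, adjusted p = 0.188).

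**Figure D2:**
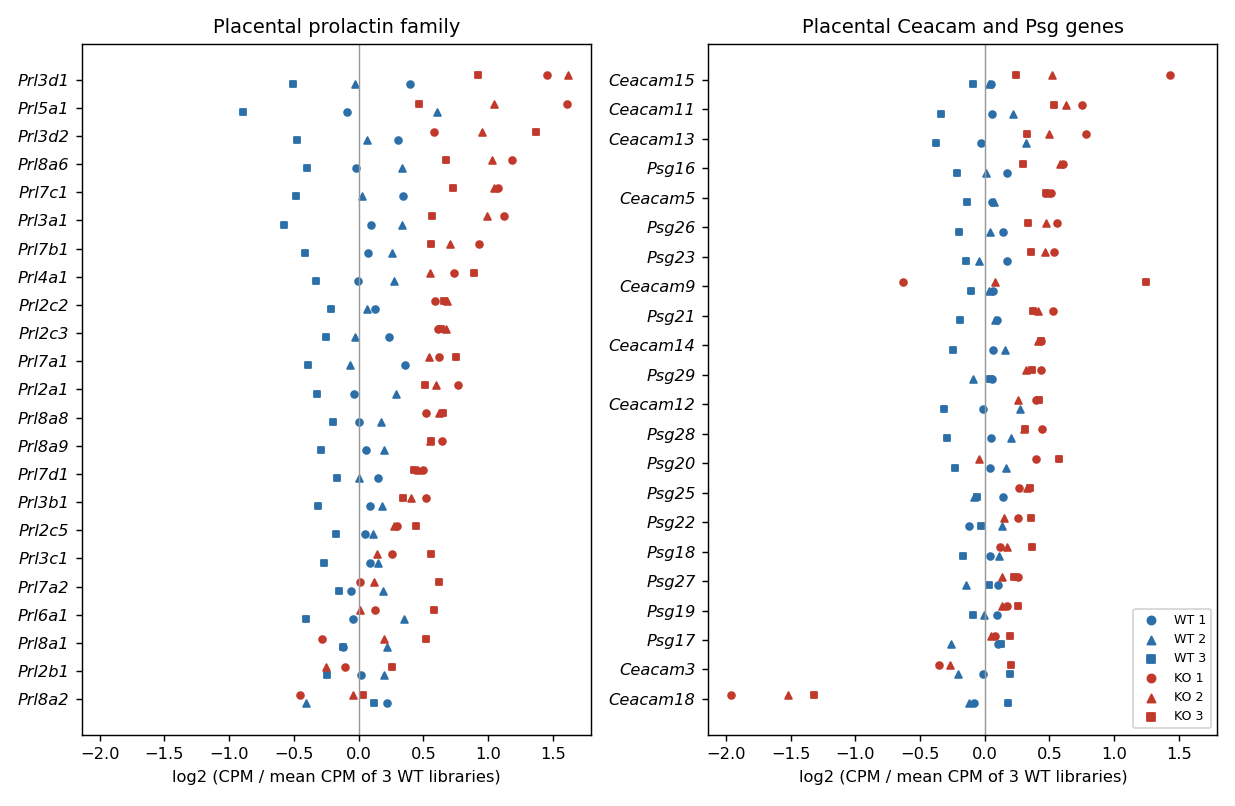
Level of each tested gene of the placental prolactin family (left) and of the placental Ceacam and Psg genes (right) in every gd16.5 library, as log2 of CPM over the mean CPM of the 3 WT libraries. Red symbols (KO) lie to the right of all blue symbols (WT) in 16 rows on the left and 16 on the right, and Ceacam18 at the bottom right lies to the left in all 3 KO libraries.

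The 23 tested prolactin genes lie on chromosome 13 between 12790816 and 28151611 of GRCm38, so that many are neighbours. RefSeq start sites for GRCm38.p6 were matched for 21 of the 24 genes, and the 200 bases before each start were searched on both strands for the AP-1 site TGANTCA and the GATA site AGATAA, motifs known from placental hormone promoters. The AP-1 letters were in 6 of 21 windows (28.6%) against 5.55% of 27025 promoters, and the GATA letters in 7 of 21 (33.3%) against 7.98%. Among the genes higher at p under 0.05, 4 of 15 held the AP-1 letters and 5 of 15 the GATA letters, and among the other tested genes 1 of 5 and 2 of 5. The match is a description of the letters in this window. The windows of Prl3d1 and Prl8a6, members with large differences, and of Prl2b1, whose groups overlapped, are shown 5′ to 3′ with the matched letters in capitals. Prl3d1 at chr13:27093989-27094188 (plus strand) has 1 AP-1 match, Prl2b1 at chr13:27390847-27391046 (minus strand) has 1 GATA match, and Prl8a6 at chr13:27438689-27438888 (minus strand) has neither.
Prl3d1: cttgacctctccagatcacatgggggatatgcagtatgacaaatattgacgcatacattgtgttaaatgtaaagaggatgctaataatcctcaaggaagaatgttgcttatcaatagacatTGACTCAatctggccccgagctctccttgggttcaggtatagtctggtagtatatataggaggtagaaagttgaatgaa
Prl8a6: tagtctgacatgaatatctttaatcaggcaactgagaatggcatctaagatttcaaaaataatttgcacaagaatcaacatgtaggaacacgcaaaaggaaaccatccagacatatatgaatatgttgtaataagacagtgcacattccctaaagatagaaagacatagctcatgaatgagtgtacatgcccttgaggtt
Prl2b1: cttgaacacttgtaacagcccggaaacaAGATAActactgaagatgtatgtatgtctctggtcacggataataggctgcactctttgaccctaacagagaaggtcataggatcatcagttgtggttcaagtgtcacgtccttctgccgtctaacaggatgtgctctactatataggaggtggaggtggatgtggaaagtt

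The placental Ceacam and Psg genes, which encode secreted and membrane-bound immunoglobulin-like glycoproteins of trophoblast, were a second family often higher in KO. All 22 lie on chromosome 7 between 16671331 and 43649295 and all were tested, with a median log2 fold change of 0.37. At unadjusted p under 0.05, 13 were higher (5.49% of all genes were) and 1 lower (5.6%). In 16 all KO libraries were above all WT libraries (8.85%). DESeq2 gave an adjusted p under 0.05 for 8 of the higher genes (0.463%) and for the lower gene (0.659%). The group took 10.8 ± 0.38% of all counts in KO (SD, n = 3) and 8.52 ± 0.86% in WT. Its summed levels were 117363, 111047 and 106973 CPM in KO and 88647, 86787 and 72978 CPM in WT, with no overlap and WT replicate 3 the lowest.

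Ceacam5 was read at 9278, 9046 and 9043 CPM in KO and 6762, 6813 and 5919.6 CPM in WT (log2 fold change 0.49 ± 0.11, edgeR adjusted p = 0.362, DESeq2 adjusted p = 8.92e-05). Ceacam11 was read at 14614, 13362 and 12549 CPM in KO and 9029, 10095 and 6864 CPM in WT (log2 fold change 0.64 ± 0.16, DESeq2 adjusted p = 0.00438). Psg21, for which 18.0% of the windows recur in other genes, was read at 19088, 17609 and 17141 CPM in KO and 14187, 14013 and 11615 CPM in WT (log2 fold change 0.44 ± 0.13). In these 3 genes the lowest KO library exceeded the highest WT library. Psg16, Psg23, Psg26 and Psg29 differed by 0.50, 0.46, 0.46 and 0.37 on the log2 scale, each with no overlap. Ceacam15 differed by 0.82 ± 0.28, by 0.39 without KO replicate 1, and by 0.26 without the 3 libraries carrying yolk sac transcripts.

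Ceacam18 went the other way. At chr7:43634707-43649295, the distal end of the group, it was read at 1.59, 2.15 and 2.48 CPM in KO and 5.83, 5.68 and 6.98 CPM in WT. All KO libraries were well below all WT libraries, and differed by -1.57 ± 0.20 on the log2 scale (edgeR adjusted p = 0.149, DESeq2 adjusted p = 7.90e-08). In the other stages Ceacam18 differed by -0.57 (gd19.5), 0.32 (gd14.5) and -0.05 (gd10.5) on the log2 scale. The difference of gd16.5 from the mean of these had an unadjusted p of 4.23e-05 and an adjusted p of 0.136.

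Read by cell type, the spongiotrophoblast and giant cell lists leaned higher and the labyrinth list lower. Of 12 spongiotrophoblast markers, with a median of 0.55, 7 were higher at p under 0.05 (5.49% of all genes) and 0 lower (5.6%). In 6 all KO libraries were above WT (8.85%), and 6 were higher by DESeq2 (0.463%). Of 15 giant cell markers, 10 were higher (5.49%), 0 lower (5.6%) and 6 passed in DESeq2 (0.463%), with a median of 0.39. These lists share 5 and 10 genes with the prolactin family, so that they are not separate evidence. Outside that family, Tpbpa differed by 0.50 ± 0.16 (DESeq2 adjusted p = 0.0432) and Tpbpb, its neighbour, was read at 11748, 10692 and 10446 CPM in KO and 8056, 8811 and 6157 CPM in WT (log2 fold change 0.51 ± 0.15, DESeq2 adjusted p = 0.0350). Every KO library was above every WT library for both. The other spongiotrophoblast markers, Ascl2, Flt1, Phlda2, Rhox6 and Rhox9, had no p under 0.05, though all 12 markers had a log2 fold change above 0. Flt1 overlapped between the groups, at 0.11 ± 0.18. In the giant cell list the lowest log2 fold change, -0.03, was that of Hand1. The giant cell cathepsins, lysosomal proteases special to rodent placenta, differed less, by 0.39 ± 0.13 for Ctsm, 0.30 ± 0.13 for Ctsr, 0.32 ± 0.15 for Ctsj and 0.31 ± 0.18 for Ctsq, of which Ctsm alone had no overlap between the groups. The last 3 were 0.14, 0.18 and 0.12 without the libraries carrying yolk sac transcripts, and Ctsj and Ctsq 0.20 and 0.15 without WT replicate 3.

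Glycogen cell markers were mixed, with a median of 0.16 over 11 genes, 3 higher (5.49% of all genes) and 1 lower (5.6%). Besides Prl2a1 and Prl7b1, Plac8 was higher at 274, 278 and 353 CPM in KO and 249, 242 and 219 CPM in WT (log2 fold change 0.35 ± 0.12). Cdkn1c, an imprinted brake on cell division that restrains the junctional zone, was lower at 324, 300.1 and 366 CPM in KO and 370.4, 430.1 and 406 CPM in WT (log2 fold change -0.29 ± 0.10, edgeR adjusted p = 0.431). Neither gene's groups overlapped, and neither passed in DESeq2. Plac8 was 0.22 without KO replicate 3 and 0.60 without the libraries carrying yolk sac transcripts. Of the windows of Cdkn1c, 21.8% recur in other genes.

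Labyrinth trophoblast markers had a median log2 fold change of -0.47 over 13 genes. At p under 0.05, 4 were lower (5.6% of all genes) and 0 higher (5.49%). In DESeq2 0 passed (0.659% of all genes were lower and 0.463% higher). Gcm1, the factor that starts branching of the labyrinth, was read at 16.02, 6.04 and 20.1 CPM in KO and 23.8, 29.9 and 27.7 CPM in WT (log2 fold change -0.96 ± 0.37). Syna, which encodes a syncytin that fuses trophoblast, was read at 17.4, 16.1 and 41.6 CPM in KO and 36.8, 40.2 and 65.7 CPM in WT (-0.93 ± 0.39). Gjb2, a gap junction channel of the syncytium, was read at 768, 504 and 980.4 CPM in KO and 981, 1244 and 1279 CPM in WT (-0.64 ± 0.23). KO replicate 2 was the lowest of the KO libraries in each of these genes, the groups of Syna overlapped, and those of Gjb2 nearly met. Slc16a3, a lactate transporter, was -0.58 on the same scale, while Slc38a4, an amino acid transporter, overlapped at 0.04 ± 0.11. The summed list was 4830.2, 3076 and 4737 CPM in KO and 4937, 5991 and 5924 CPM in WT, so that KO replicates 1 and 3 were close to WT replicate 1. Leaving out KO replicate 2 gave -0.59 for Gcm1, -0.42 for Gjb2 and -0.37 for Slc16a3, and leaving out KO replicate 3 gave -1.51 for Syna. Gcm1, Syna, Gjb2 and Slc16a3 were -0.53, -0.36, -0.37 and -0.34 without the libraries carrying yolk sac transcripts. Without the 3 libraries carrying yolk sac transcripts the list median was -0.36, and -0.30 without WT replicate 3.

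**Figure D3:**
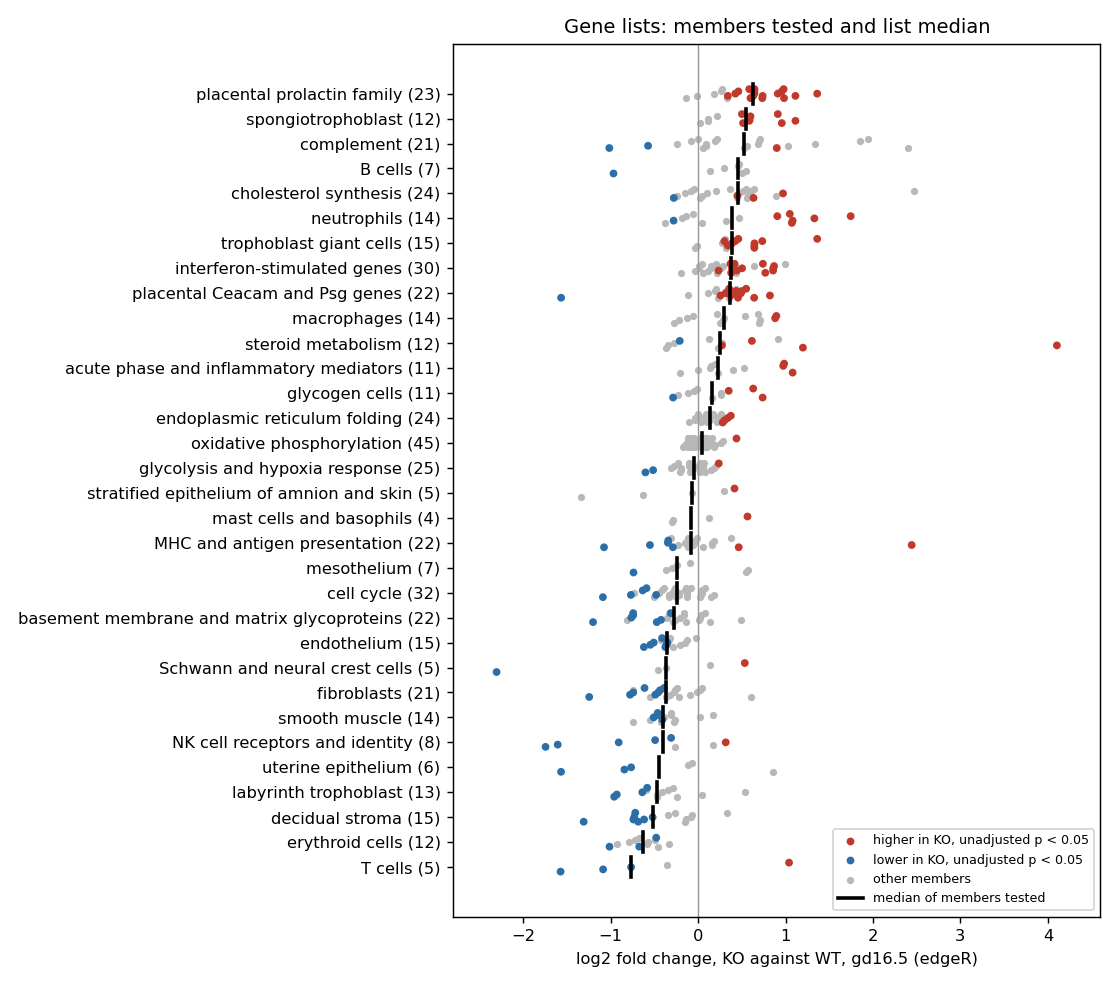
Log2 fold change of every tested member of 32 gene lists, KO against WT at gd16.5, with the list median as a black bar and members at unadjusted p under 0.05 in red (higher) or blue (lower). The placental prolactin family (median 0.63) stands at the top and erythroid (-0.63) and T cell (-0.77) genes at the bottom, and yolk sac and Y-linked genes are left out.

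Among steroid metabolism genes, Sult1e1, the sulfotransferase that inactivates oestrogen, at chr5:87575969-87591594, had a large difference with no overlap. Its levels were 99.5, 91.6 and 52.5 CPM in KO and 30.9, 42.9 and 32.3 CPM in WT. The KO libraries were all above WT, with KO replicate 3 the lowest, and the log2 fold change was 1.20 ± 0.24 (edgeR adjusted p = 0.354, DESeq2 adjusted p = 8.92e-05). Without the 3 libraries carrying yolk sac transcripts the difference was 0.47, and with the yolk sac covariate 1.03. In the other stages Sult1e1 differed by -0.30 (gd19.5), less than 0.01 in size (gd14.5) and -0.31 (gd10.5), and the difference of gd16.5 from their mean had an adjusted p of 0.159 (unadjusted p = 8.39e-05). Cyp17a1, the enzyme that opens the way to androgens, was read at 85.05, 75.1 and 59.98 CPM in KO and 46.7, 56.2 and 40.7 CPM in WT (log2 fold change 0.62 ± 0.16, DESeq2 adjusted p = 0.0318). Star, the carrier of cholesterol into mitochondria, was 0.27 ± 0.07 higher, also with no overlap, and Hsd17b2, which inactivates oestradiol, -0.21 ± 0.09. Cyp17a1 and Hsd17b2 were 0.30 and -0.11 without the libraries carrying yolk sac transcripts, and Hsd17b2 -0.13 without KO replicate 2. Hsd3b1 followed the yolk sac split, at 6.76, 50.2 and 0.248 CPM in KO and 2.80, 0.238 and 0.218 CPM in WT. Its log2 fold change of 4.10 was the largest of the list, with the groups overlapping. Over the 12 tested genes 4 were higher (5.49% of all genes) and 1 lower (5.6%), with a median of 0.25.

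The lists of decidual stroma, fibroblasts, smooth muscle and endothelium leaned lower in KO. Stroma and vessels lie on both the maternal and the fetal side, which these counts do not separate. None of these 4 lists had a member higher at p under 0.05. The counts of lower members were 7 of 15 decidual stroma genes (median -0.52), 8 of 21 fibroblast genes (-0.37), 4 of 14 smooth muscle genes (-0.40) and 7 of 15 endothelial genes (-0.35), where 5.6% of all genes were lower. With no overlap between the groups there were 8, 6, 4 and 6 genes (8.76% of all genes), and by DESeq2 1, 2, 3 and 0 (0.659%). WT replicate 3 was often the highest library, and without it the medians were -0.19, -0.31, -0.40 and -0.23. The fibroblast median was -0.20 without WT replicate 1 and -0.19 without the libraries carrying yolk sac transcripts. At gd19.5 the same medians were -0.09, 0.22, 0.32 and 0.20.

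Hoxa11, a homeobox gene needed for decidualization, was read at 13.8, 12.2 and 14.7 CPM in KO and 20.6, 18.5 and 28.4 CPM in WT. WT replicate 3 was the highest and the groups did not overlap, at -0.73 ± 0.17 on the log2 scale (edgeR adjusted p = 0.363, DESeq2 adjusted p = 0.0112). Pgr, the progesterone receptor, was read at 24.3, 27.3 and 21.6 CPM in KO and 32.2, 31.7 and 56.7 CPM in WT (-0.72 ± 0.23), and Esr1, an oestrogen receptor, at 17.7, 17.6 and 15.4 CPM in KO and 18.7, 20.02 and 34.1 CPM in WT (-0.52 ± 0.22). Both were lower without overlap, with WT replicate 3 the highest. Without that library the log2 fold changes of Pgr and Esr1 were -0.39 and -0.19. Hand2 (-0.68), Hoxa10 (-0.62) and Wnt6 (-0.74) were also lower with no overlap, Hand2 and Hoxa10 at -0.39 and -0.29 without WT replicate 3.

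Among fibroblast genes, Thy1, a surface glycoprotein also found on T cells, was read at 0.953, 1.70 and 2.19 CPM in KO and 3.44, 3.89 and 4.23 CPM in WT (log2 fold change -1.24 ± 0.28, DESeq2 adjusted p = 0.00931). Col12a1, a collagen that decorates fibrils, was read at 96.1, 92.01 and 97.5 CPM in KO and 119, 148 and 222 CPM in WT (log2 fold change -0.78 ± 0.20, DESeq2 adjusted p = 0.0122). For both, all KO libraries were below all WT libraries. Dcn, a small matrix proteoglycan, differed by -0.49 ± 0.15, Aebp1 by -0.74 ± 0.24 and Col5a2 by -0.61 ± 0.24, the last with WT replicate 3 at 301 CPM against 175 and 149.8 in the other WT libraries. Col3a1 and Lum overlapped between the groups. Without WT replicate 3 the differences of Col12a1, Aebp1 and Col5a2 were -0.49, -0.46 and -0.25, and Dcn was -0.86 without the libraries carrying yolk sac transcripts.

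The 14 smooth muscle genes had log2 fold changes from -0.75 to 0.17, 12 of them below 0. Acta2, the actin of contractile cells, was read at 70.2, 64.98 and 66.3 CPM in KO and 95.7, 90.8 and 80.8 CPM in WT (log2 fold change -0.41 ± 0.08, edgeR adjusted p = 0.354, DESeq2 adjusted p = 0.00704). Mylk, the kinase that starts contraction, was read at 42.6, 35.8 and 42.5 CPM in KO and 50.9, 56.8 and 59.2 CPM in WT (-0.47 ± 0.10, DESeq2 adjusted p = 0.0160), and Myh11, the smooth muscle myosin, at 19.3, 18.4 and 24.3 CPM in KO and 32.4, 26.6 and 29.1 CPM in WT (-0.51 ± 0.13, DESeq2 adjusted p = 0.0449). No KO library of these 3 genes reached a WT library, and Myh11 was -0.21 without the libraries carrying yolk sac transcripts. At gd19.5 the same 3 differences were 0.49, 0.07 and 0.57.

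All 15 endothelial genes had a negative log2 fold change. Sox18, a transcription factor of vessels, was read at 6.08, 4.50 and 4.79 CPM in KO and 6.95, 8.18 and 8.43 CPM in WT (log2 fold change -0.62 ± 0.16, edgeR adjusted p = 0.376). Plvap, which forms the diaphragms of endothelial pores, was read at 85.8, 65.9 and 88.04 CPM in KO and 94.2, 112 and 135 CPM in WT (-0.51 ± 0.16). Robo4 (-0.55), Tek (-0.41) and Kdr (-0.37), receptors of the endothelium, were likewise lower with no overlap. Pecam1 and Cdh5, general markers of endothelium, overlapped, at -0.21 ± 0.14 and -0.42 ± 0.23. Kdr was -0.19 without WT replicate 3. With the yolk sac covariate the list median was -0.22.

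Basement membrane and matrix glycoprotein genes had a median of -0.27 over 22 genes. At p under 0.05, 7 were lower (5.6% of all genes) and 0 higher (5.49%), and 3 were lower by DESeq2 (0.659%). Tgfbi, an adhesion protein of the matrix, was read at 19.2, 21.02 and 24.6 CPM in KO and 36.8, 31.6 and 40.03 CPM in WT (log2 fold change -0.74 ± 0.13, edgeR adjusted p = 0.277, DESeq2 adjusted p = 0.000174). Matn2, a matrilin, was read at 33.5, 30.02 and 33.8 CPM in KO and 44.9, 50.9 and 69.5 CPM in WT (-0.76 ± 0.16, DESeq2 adjusted p = 0.00222), and Nid2, a linker of basement membranes, at 84.8, 60.2 and 103 CPM in KO and 114, 119.8 and 180.2 CPM in WT (-0.74 ± 0.23, DESeq2 adjusted p = 0.0496). All 3 were lower without overlap. Spon1 was -1.20 on the log2 scale, and -0.70 without WT replicate 3. The list median without that library was -0.07.

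Uterine epithelium was represented by 6 tested markers of 9, with a median of -0.44, 3 lower (5.6% of all genes) and 0 higher (5.49%). Spp1, osteopontin, which decidual immune cells and epithelium secrete, was read at 98.1, 145 and 112 CPM in KO and 193, 215 and 196 CPM in WT. KO was below WT in every library, by -0.77 ± 0.14 on the log2 scale (edgeR adjusted p = 0.334, DESeq2 adjusted p = 9.54e-05). Wfdc2, a protease inhibitor of epithelia, was read at 4.77, 1.98 and 8.58 CPM in KO and 11.3, 15.6 and 17.99 CPM in WT (-1.57 ± 0.46), and Muc1, a mucin of the luminal surface, at 57.2, 40.6 and 87.5 CPM in KO and 89.2, 95.1 and 148 CPM in WT (-0.84 ± 0.30). Their KO libraries were spread widely, with replicate 2 the lowest. Wfdc2 and Muc1 were -0.98 and -0.48 without the libraries carrying yolk sac transcripts. Mesothelial markers had a median of -0.24 over 7 genes with 1 lower, and 5 markers of stratified epithelium -0.07 with 1 higher, Krt14 (0.41 ± 0.10), which was 0.26 on that exclusion. Some markers of these lists fell below the filter but were high in WT replicate 1 and KO replicate 2. These were Muc16 at 299 and 48 counts, Krt15 at 138 and 15, and Krt5 at 61 and 7, against 0 to 3 in the other libraries.

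Erythroid genes leaned lower, with all 12 tested genes at a negative log2 fold change (median -0.63) and 3 lower at p under 0.05 (5.6% of all genes). The beta globin gene Hbb-bs was read at 4246, 1572 and 2771 CPM in KO and 5604, 3981 and 2223 CPM in WT, with KO replicate 2 the lowest and the groups overlapping (-0.46 ± 0.42). Slc4a1, the anion exchanger of red cells, was read at 12.7, 4.33 and 10.1 CPM in KO and 20.6, 19.4 and 14.3 CPM in WT (log2 fold change -1.01 ± 0.35) and Gata1, the erythroid transcription factor, at 8.08, 5.98 and 8.99 CPM in KO and 9.98, 10.9 and 11.1 CPM in WT (-0.48 ± 0.16), both without overlap. Slc4a1 was -0.67 without KO replicate 2, Hbb-bs -0.12 without WT replicate 1 and -0.86 without KO replicate 1, and Gata1 -0.30 without the libraries carrying yolk sac transcripts. Tspo2, an erythroid membrane protein among the genes with the largest differences, was read at 1.09, 0.335 and 0.578 CPM in KO and 2.17, 1.63 and 1.27 CPM in WT (-1.39 ± 0.42). Without the 3 libraries carrying yolk sac transcripts the list median was -0.27.

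Most NK, T and mast cell markers did not reach the expression filter. Of 28 NK cell receptor and identity genes 8 were tested, and Ncr1 and Klrb1c, which define NK cells in C57BL/6 mice, had 0 to 3 counts in every library. The 8 tested genes had a median of -0.40. At p under 0.05, 5 were lower (5.6% of all genes) and 1 higher (5.49%), and 3 were lower by DESeq2 (0.659%). The summed list overlapped, at 254, 239 and 258 CPM in KO and 246, 256 and 287 CPM in WT. Fcrl6, an Fc receptor-like gene at chr1:172596642-172602551, was read at 2.22, 1.96 and 2.06 CPM in KO and 4.52, 7.27 and 7.203 CPM in WT (log2 fold change -1.60 ± 0.22, DESeq2 adjusted p = 7.89e-07). Sh2d1b2, an adaptor of SLAM receptors in NK cells, was read at 0.726, 0.894 and 1.24 CPM in KO and 2.43, 3.65 and 3.54 CPM in WT (-1.74 ± 0.26, edgeR adjusted p = 0.197, DESeq2 adjusted p = 8.92e-05). Cd244a, a SLAM receptor, was read at 12.1, 11.9 and 14.1 CPM in KO and 17.2, 18.7 and 17.7 CPM in WT (-0.49 ± 0.10, DESeq2 adjusted p = 0.0234). The KO libraries of all 3 were below the WT libraries. Itga1 (CD49a), shared with stroma, differed by -0.31 ± 0.11, and Il2rb, the IL-2 receptor beta chain, was the 1 higher member at 0.32 ± 0.10. Il2rb lies on chromosome 15 within 28075 bases of C1qtnf6, the deleted locus, and its difference at gd19.5 was 0.24. At gd19.5 Sh2d1b2 differed by -0.81 and Cd244a by -0.14.

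T cell genes were near the limit of detection, with 5 of 15 tested and none above 1.4 CPM. Ctla4, an inhibitory receptor of T cells, was read at 0.272, 0.252 and 0.660 CPM in KO and 0.897, 1.23 and 1.35 CPM in WT (log2 fold change -1.57 ± 0.40, edgeR adjusted p = 0.376). Lck (-1.09) and Icos (-0.77) were lower and Cd4 (1.04) higher, all with no overlap and below the level that DESeq2 tested. Ctla4 was -0.97 without the libraries carrying yolk sac transcripts. The T cell list had a median of -0.77, with 3 lower (5.6% of all genes) and 1 higher (5.49%). Of 7 tested B cell genes (median 0.46), 1 was lower (5.6%) and 0 higher (5.49%).

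Neutrophil genes were mixed. Of 21 markers 14 were tested, 9 with a log2 fold change above 0 and 5 below, with a median of 0.39. At p under 0.05, 6 were higher (5.49% of all genes) and 1 lower (5.6%). The summed list overlapped, at 210.2, 202 and 208 CPM in KO and 204, 252 and 208 CPM in WT, and Il1r2, a decoy receptor of interleukin 1 that on average made up the largest part of this sum, was -0.37 ± 0.17 on the log2 scale. Csf3r, the receptor of granulocyte colony-stimulating factor, was read at 4.67, 5.67 and 6.44 CPM in KO and 2.95, 1.83 and 1.88 CPM in WT (log2 fold change 1.33 ± 0.23, edgeR adjusted p = 0.277, DESeq2 adjusted p = 0.000315). S100a9, an alarmin subunit, was read at 4.08, 3.66 and 4.37 CPM in KO and 1.91, 2.26 and 1.57 CPM in WT (1.07 ± 0.19, DESeq2 adjusted p = 0.00764). All KO libraries were above WT for both. S100a8, the partner of S100a9, was the lower member, at 14.02, 13.9 and 15.3 CPM in KO and 17.2, 19.2 and 16.02 CPM in WT (-0.28 ± 0.10). Mmp9 (1.05), Lcn2 (1.08), Ncf1 (0.91) and Retnlg (1.74), each under 5 CPM, were higher with no overlap, Lcn2 at 0.70 without the libraries carrying yolk sac transcripts. Cxcr2, read at 74.1 to 90.7 CPM, did not differ beyond its spread, with a log2 fold change of 0.04 ± 0.09, and Ly6g, the defining surface marker, had 0 to 3 counts and was not tested. The list median was 0.14 without KO replicate 2 and 0.79 without WT replicate 1.

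Macrophage genes had a median of 0.29 over 14 genes. Adgre1 (F4/80, 0.89 ± 0.27) and Fcgr1 (0.88 ± 0.36) were higher at p under 0.05 (5.49% of all genes) and none lower (5.6%). Adgre1 was read at 5.13, 8.11 and 6.27 CPM in KO and 4.86, 3.10 and 2.53 CPM in WT. KO and WT did not overlap for Adgre1, though KO replicate 1 was close to WT replicate 1. Fcgr1 was 1.34 without WT replicate 1. Csf1r, which trophoblast also expresses, overlapped at -0.06 ± 0.16. The list median was 0.08 with the yolk sac covariate, and 0.08 without KO replicate 2. Of 4 tested mast cell and basophil genes (median -0.08), Hdc was higher (0.56 ± 0.23) with overlap. Ctsg, a protease of mast cell and neutrophil granules among the lower genes, was read at 1.45, 0.615 and 1.57 CPM in KO and 2.95, 3.65 and 3.71 CPM in WT (log2 fold change -1.53 ± 0.34, DESeq2 adjusted p = 0.00435).

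Interferon-stimulated genes, the antiviral set that type I interferon induces, leaned higher in KO. All 30 were tested, and 28 had a positive log2 fold change (median 0.37). At p under 0.05, 12 were higher (5.49% of all genes) and 0 lower (5.6%), and 14 had all KO libraries above WT (8.85%). Zbp1, a sensor of nucleic acids, was read at 5.45, 10.6 and 7.22 CPM in KO and 5.20, 3.81 and 3.89 CPM in WT (log2 fold change 0.86 ± 0.26, edgeR adjusted p = 0.421). Ifit3, an inhibitor of viral translation, was read at 18.5, 30.2 and 21.1 CPM in KO and 17.2, 13.3 and 10.52 CPM in WT (0.77 ± 0.23). In both, KO replicate 2 was the highest and KO replicate 1 the lowest of the KO group. The 2 members past DESeq2 were Oas1a at 31.4, 37.6 and 34.4 CPM in KO and 27.5, 23.4 and 22.1 CPM in WT (0.50 ± 0.11, DESeq2 adjusted p = 0.0318) and its paralog Oas1g at 7.40, 10.9 and 8.50 CPM in KO and 5.35, 5.72 and 5.02 CPM in WT (0.74 ± 0.17, DESeq2 adjusted p = 0.0334), which share 40.9% and 38.2% of their windows with other genes. Usp18 (0.39), Irf7 (0.38) and Oasl2 (0.37) were higher by less, while Rsad2 overlapped (0.01 ± 0.08). Zbp1 and Oasl2 were 0.56 and 0.23 without KO replicate 2. The list median was 0.26 without WT replicate 3, 0.23 without KO replicate 2, 0.29 without the 3 libraries carrying yolk sac transcripts, and 0.07 at gd19.5.

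Genes of MHC and antigen presentation were mixed. Of 22 tested, 15 had a log2 fold change below 0, 5 were lower (5.6% of all genes) and 2 higher (5.49%) at p under 0.05, and the median of -0.08 was less than 0.01 in size without WT replicate 3. The lower genes were class I heavy chains. H2-Q6 was read at 13.2, 13.2 and 10.52 CPM in KO and 21.1, 24.5 and 32.2 CPM in WT (log2 fold change -1.08 ± 0.17), H2-Q7 at 22.4, 23.1 and 22.2 CPM in KO and 29.2, 34.2 and 35.8 CPM in WT (-0.55 ± 0.09, edgeR adjusted p = 0.277, DESeq2 adjusted p = 0.00236) and H2-D1 at 519.6, 541 and 501 CPM in KO and 584, 611 and 789 CPM in WT (-0.34 ± 0.13). No KO library reached the WT libraries in these 3 genes. H2-K1 and H2-T22 were -0.29 and -0.34. Without WT replicate 3 the differences of H2-D1 and H2-K1 were -0.20 and -0.17. Of the 100-base windows of H2-Q6, H2-Q7 and H2-T22, 13.0%, 12.9% and 38.1% recur in other genes. H2-Aa, a class II chain, was higher at 0.46 ± 0.18 (0.28 without KO replicate 1), H2-Q10, the other higher gene, followed the yolk sac split, and B2m, the light chain of class I, overlapped.

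Complement genes had a median of 0.52 over 21 genes, but 0.04 with the yolk sac covariate and 0.07 without KO replicate 2. At p under 0.05, 1 was higher (5.49% of all genes) and 2 lower (5.6%). C3 (17.5, 38.4 and 3.42 CPM in KO and 10.47, 2.38 and 3.67 CPM in WT) and Cfi (22.3, 75.99 and 0.619 CPM in KO and 24.2, 0.993 and 0.349 CPM in WT) followed the split of the yolk sac transcripts. Serping1, the inhibitor of C1, did not, and was read at 127, 108 and 100.9 CPM in KO and 173, 193 and 313 CPM in WT (log2 fold change -1.01 ± 0.22, edgeR adjusted p = 0.356, DESeq2 adjusted p = 0.000346). Serping1 was lower in all KO libraries, and without WT replicate 3 the difference was -0.71. The C1q chain genes C1qa, C1qb and C1qc, made by macrophages, had log2 fold changes of 0.69 ± 0.36, 0.71 ± 0.35 and 0.70 ± 0.35. Their groups overlapped and none had a p under 0.05, and without KO replicate 2 they were 0.34, 0.40 and 0.38, and without WT replicate 1 1.12, 1.11 and 1.08. Among 11 tested acute phase and inflammatory genes (median 0.23), Cxcl1 (0.97 ± 0.25), Il1b (0.98 ± 0.34) and Lcn2 were higher (5.49% of all genes), all under 5 CPM. None was lower (5.6%). Cxcl1 was 0.52 without the libraries carrying yolk sac transcripts.

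Proliferation genes leaned lower, with a median of -0.24 over 32 cell cycle genes, 5 lower (5.6% of all genes) and 0 higher (5.49%) at p under 0.05. E2f2, an activator of S phase genes, was read at 1.23, 1.01 and 1.28 CPM in KO and 2.99, 2.42 and 2.01 CPM in WT (log2 fold change -1.09 ± 0.22, DESeq2 adjusted p = 0.0449), and Kifc1, a motor of the spindle, at 8.08, 5.42 and 8.87 CPM in KO and 10.8, 13.5 and 13.6 CPM in WT (-0.77 ± 0.20, DESeq2 adjusted p = 0.0273). Both were below WT in all KO libraries. Rrm2 and Pcna, needed for DNA synthesis, overlapped, at -0.73 ± 0.40 and 0.05 ± 0.09. The list median was -0.12 without KO replicate 2 and -0.03 without the 3 libraries carrying yolk sac transcripts.

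Energy metabolism differed little. The 45 oxidative phosphorylation genes had a median of 0.04 (-0.05 on raw library totals), with 1 higher and 0 lower. The 25 genes of glycolysis and hypoxia response had a median of -0.05, with 1 higher and 2 lower. Over all genes 5.49% were higher and 5.6% lower. Slc2a3, a glucose transporter of trophoblast, was read at 50.1, 42.4 and 56.1 CPM in KO and 70.4, 70.8 and 84.2 CPM in WT (log2 fold change -0.60 ± 0.12, edgeR adjusted p = 0.354, DESeq2 adjusted p = 0.00406), below WT in all KO libraries. Adm, adrenomedullin, was -0.51 ± 0.20, and -0.25 without WT replicate 3. Slc2a1, the other main glucose transporter, overlapped at -0.23 ± 0.17.

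Genes of protein folding in the endoplasmic reticulum, the compartment through which hormones are secreted, had a median of 0.14 over 24 genes. At p under 0.05, 4 were higher (5.49% of all genes) and 0 lower (5.6%). Hspa5, the chaperone BiP, was read at 3812, 4584 and 3845 CPM in KO and 3676, 3111 and 2893 CPM in WT (log2 fold change 0.34 ± 0.13) and Hsp90b1 at 2653, 3209.7 and 2704 CPM in KO and 2478, 2163 and 1967 CPM in WT (0.37 ± 0.13), with no overlap, and Pdia6 and Manf were 0.28 and 0.30 higher. None had a DESeq2 adjusted p under 0.05, and Manf was 0.18 without WT replicate 3. Cholesterol synthesis genes had a median of 0.46 over 24 genes, with 3 higher (5.49%) and 1 lower (5.6%). The median was 0.16 with the yolk sac covariate, -0.01 without KO replicate 2 and 0.01 without the 3 libraries carrying yolk sac transcripts. The 3 higher genes, Idi1, Sc5d and Fdft1, were highest in KO replicate 2 and overlapped between the groups.

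By size of difference, 15 genes were named in each direction, among those with an unadjusted p under 0.05, no overlap and at least 1 CPM in the higher genotype, and leaving out genes known only by Gm numbers, Rik names or clone-like names. Nppb, at chr4:147985788-147987205, encodes B-type natriuretic peptide and led the higher genes so chosen, at 17.97, 10.8 and 4.17 CPM in KO and 2.69, 3.49 and 2.27 CPM in WT. The KO libraries ranged widely above the WT libraries, at 1.96 ± 0.48 on the log2 scale (edgeR adjusted p = 0.369), which was 0.52 without the 3 libraries carrying yolk sac transcripts. Sohlh2, a transcription factor known from germ cells, was even, at 3.22, 2.91 and 4.13 CPM in KO and 1.08, 0.874 and 1.35 CPM in WT (log2 fold change 1.63 ± 0.23, edgeR adjusted p = 0.180, DESeq2 adjusted p = 0.000152). Tppp, a tubulin-binding protein, was read at 16.8, 16.1 and 7.59 CPM in KO and 6.13, 5.52 and 6.11 CPM in WT (1.19 ± 0.28, DESeq2 adjusted p = 0.00443). Tppp was 0.37 without the libraries carrying yolk sac transcripts, and 0.87 with the yolk sac covariate. Pirb and Cd300lb, myeloid receptors, differed by 1.16 ± 0.31 and 1.26 ± 0.35.

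Naip6, a cytosolic sensor of bacterial protein, was read at 1.86, 6.46 and 2.15 CPM in KO and 1.57, 1.31 and 0.306 CPM in WT (1.72 ± 0.64), and without KO replicate 2 the difference was 0.90. Capn11 was read at 3.13, 4.02 and 4.83 CPM in KO and 3.07, 0.635 and 0.437 CPM in WT, with WT replicate 1 almost at the level of KO replicate 1. The long RNA Mm2pr (1.46 ± 0.35, DESeq2 adjusted p = 0.0217), Trim30b (1.42), Myo16 (1.33) and Hsh2d (1.28), an adaptor of blood cells, stood between 0.20 and 4.40 CPM. On leaving out the libraries carrying yolk sac transcripts, Mm2pr was 0.69 and Cideb 0.92, and Hsh2d was 0.75 without KO replicate 2. Cideb (1.39) shares 76.3% of its exon bases with Nop9 on the other strand. Counting without strand cannot assign reads of the shared part to 1 of the 2 genes, so the level of Cideb is uncertain.

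Among the lower genes after C1qtnf6, Ngfr, a neurotrophin receptor of nerve-associated and mesenchymal cells, was read at 0.318, 0.252 and 1.44 CPM in KO and 1.495, 2.90 and 5.37 CPM in WT (log2 fold change -2.30 ± 0.71, edgeR adjusted p = 0.421, DESeq2 adjusted p = 0.0236). KO replicate 3 was close to WT replicate 1, and WT replicate 3 was the highest. Of the 5 tested Schwann and neural crest markers (median -0.37), Ngfr was the 1 lower at p under 0.05 (5.6% of all genes) and 1 was higher (5.49%). The summed list was higher in every KO library, at 53.6, 70.7 and 48.0 CPM in KO and 44.8, 40.3 and 46.9 CPM in WT. The list median was 0.21 without the libraries carrying yolk sac transcripts and -0.04 without KO replicate 2. Pi15, a peptidase inhibitor, was read at 4.27, 5.84 and 3.22 CPM in KO and 9.80, 11.5 and 37.4 CPM in WT (-2.12 ± 0.53), and without WT replicate 3 the difference was -1.25. Inmt, an indolethylamine methyltransferase, was read at 6.76, 4.64 and 5.61 CPM in KO and 12.2, 14.4 and 24.8 CPM in WT (-1.60 ± 0.28, DESeq2 adjusted p = 3.09e-06), and Cnmd, chondromodulin, an inhibitor of vessel growth, at 2.59, 2.91 and 3.59 CPM in KO and 6.92, 6.55 and 11.8 CPM in WT (-1.47 ± 0.26, DESeq2 adjusted p = 5.30e-05). In both, WT replicate 3 was the highest. Cpne5, a calcium-dependent membrane-binding protein, was -1.71 ± 0.47 on the log2 scale (DESeq2 adjusted p = 0.0104). The pseudogene Phf20-ps (-1.77) and Tdrd9 (-1.56), a helicase of the germline, were under 2.3 CPM. Phf20-ps was -0.81 without WT replicate 1. Ngfr was -3.52 without KO replicate 3, and Ngfr, Cpne5 and Phf20-ps were -1.52, -1.08 and -0.30 without the libraries carrying yolk sac transcripts.

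**Figure D4:**
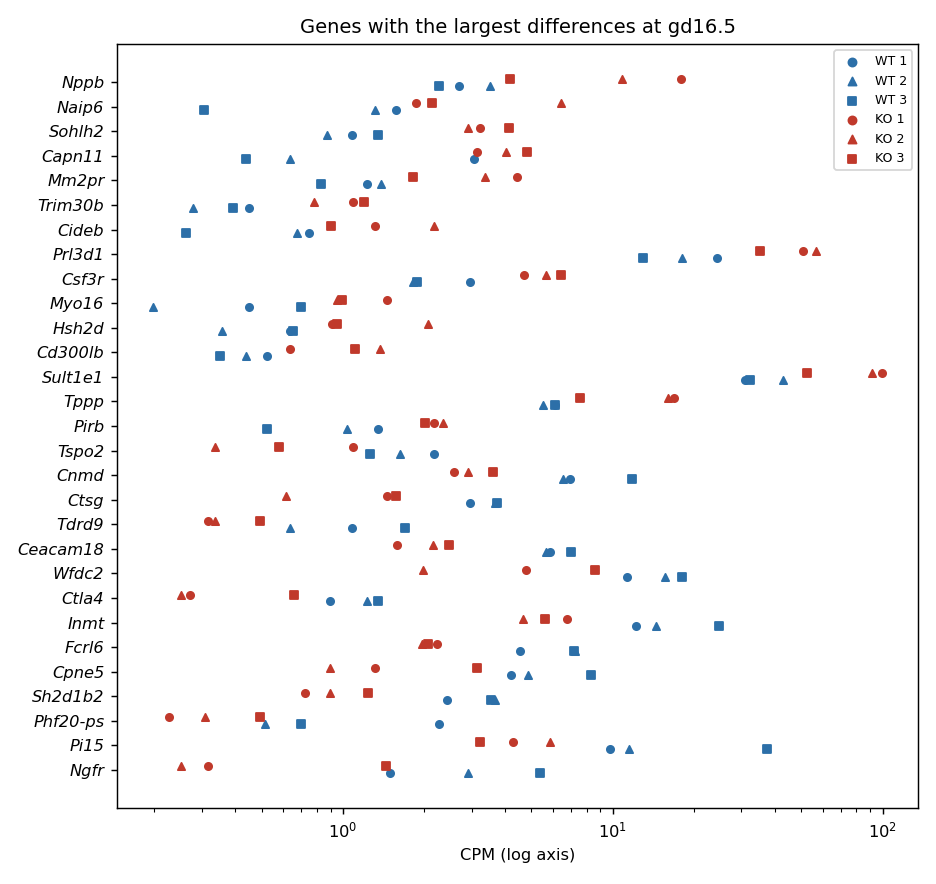
CPM on a log axis in every gd16.5 library for the 15 genes with the largest higher differences (top) and the 14 lower genes after C1qtnf6 (bottom), red for KO and blue for WT. All red symbols of a row lie on one side of its blue symbols, and the gap is narrow where 1 library lies near the other group, as for Capn11, 3.13 CPM in KO replicate 1 against 3.07 CPM in WT replicate 1.

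DESeq2 called further genes past an adjusted p of 0.05 and a 2-fold change that the rule above had left out because their fold change was smaller. They were picked with their values in view. Vcan, versican, a proteoglycan of loose matrix, was read at 58.5, 52.1 and 33.8 CPM in KO and 27.8, 20.1 and 21.6 CPM in WT (log2 fold change 1.06 ± 0.21, DESeq2 adjusted p = 0.000252), and Scn9a, a voltage-gated sodium channel, at 41.1, 38.99 and 25.7 CPM in KO and 15.2, 17.6 and 18.9 CPM in WT (1.04 ± 0.18, DESeq2 adjusted p = 7.14e-05). Both were higher in every KO library. Fgl2, a prothrombinase and immune regulator, was lower in every KO library, at 25.6, 20.2 and 23.02 CPM in KO and 36.3, 59.2 and 51.5 CPM in WT (-1.10 ± 0.18, edgeR adjusted p = 0.277, DESeq2 adjusted p = 3.87e-06). Mrgprg, an orphan receptor, was read at 17.9, 17.2 and 19.8 CPM in KO and 29.6, 28.5 and 53.9 CPM in WT (-1.03 ± 0.24), and Slc6a13, a GABA transporter, at 2.86, 2.93 and 4.79 CPM in KO and 7.40, 7.35 and 12.1 CPM in WT (-1.35 ± 0.28). Cacna1b, Shisa7, Nkain2, Ap3b2 and Kirrel3, known from neurons, had log2 fold changes of -1.32, -1.25, -1.11, -1.02 and -1.20, all without overlap. Vcan, Scn9a and Kirrel3 were 0.69, 0.49 and -0.76 without the libraries carrying yolk sac transcripts, and Mrgprg was -0.67 without WT replicate 3.

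Late gestation itself changes the placenta, so the genotype difference was set beside genes that differ with stage in WT. In the WT libraries of gd14.5 and gd19.5, none of which enters the gd16.5 comparison, edgeR found 1150 genes higher (6.52% of 17639) and 807 lower (4.58%) at gd19.5 past an adjusted p of 0.05 and 2-fold. Of the first, 1048 were tested at gd16.5, with a median KO effect of 0.26 and 72.5% above 0 against 51.6% of all genes. At p under 0.05, 187 (17.8%) were higher and 28 (2.67%) lower, against 5.49% and 5.6% of all genes. Of the second, 667 were tested, with a median of -0.17, 18 higher and 112 lower, and 65.5% below 0 against 48.4% of all genes. Genes that increase toward term in WT were thus more often higher in KO at gd16.5, and genes that decrease more often lower.

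The size of these shifts varied with how the libraries carrying yolk sac transcripts were treated. Without those 3 libraries the medians were 0.03 and 0.03, and with the yolk sac covariate 0.14 and -0.12. With each library left out in turn they lay between 0.19 and 0.35, and between -0.29 and -0.11. The same 3 libraries were high for Y-linked genes, and leaving them out removes most KO libraries. Yolk sac transcripts, Y-linked transcripts and the loss of libraries are thus not told apart, and the cause was not tested. Members on the side of increase included Prl8a6, Prl3a1, Prl5a1, Sult1e1 and Nppb, whose WT log2 difference between gd14.5 and gd19.5 was 3.57, 3.54, 4.53, 3.01 and 4.16. The prolactin family was evenly split, with 4 of its 23 tested genes on the side of increase and 4 on the side of decrease. Spongiotrophoblast markers were split 2 and 2, and giant cell markers 3 and 3. Of the 32 cell cycle genes, 23 were on the side of decrease, and of the 30 interferon-stimulated genes 0 were on either side.

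**Figure D5:**
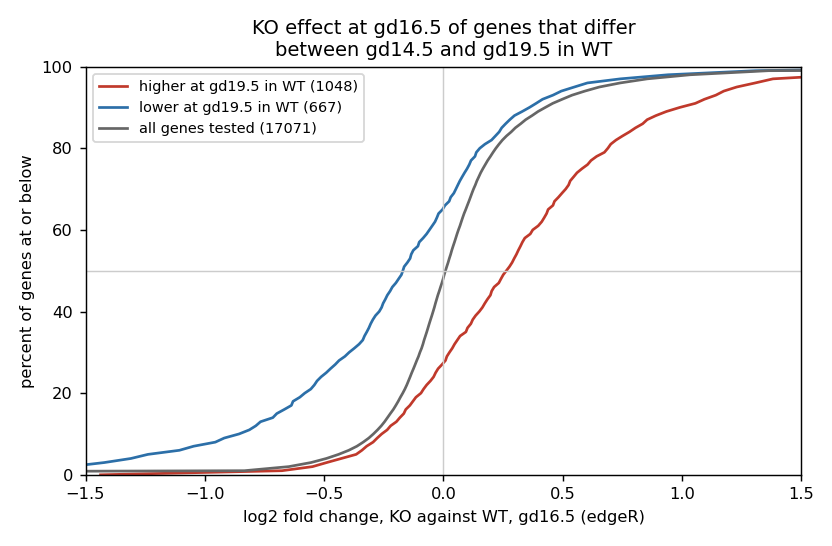
Cumulative percent of genes by log2 fold change of KO against WT at gd16.5, for 1048 genes higher and 667 genes lower at gd19.5 than at gd14.5 in WT, and for all 17071 genes tested. The red curve lies to the right of the grey curve (median 0.26 against 0.01) and the blue curve to its left (median -0.17).

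Whether the KO effect was particular to gd16.5 was tested over all 24 libraries against the average of its effects at gd10.5, gd14.5 and gd19.5. At an unadjusted p under 0.05, 2471 of 19299 genes (12.8%) differed, 0 passed an adjusted p of 0.05 in edgeR (smallest adjusted p = 0.136) and 38 in DESeq2. Of the 29 named genes other than C1qtnf6, 24 had an unadjusted p under 0.05 for this difference. Csf3r (0.000420), Sult1e1 (8.39e-05), Nppb (0.000550) and Ceacam18 (4.23e-05) had small unadjusted p-values, none of which passed after adjustment. Since these genes were chosen for their difference at gd16.5, a larger effect at that stage is partly fixed by the choice. At gd19.5 the list medians were -0.09 for spongiotrophoblast, -0.20 for giant cells, 0.22 for fibroblasts, 0.32 for smooth muscle and 0.57 for erythroid genes, on the other side of 0 from gd16.5, while that of decidual stroma was on the same side at -0.09. At gd10.5 the medians of the spongiotrophoblast list (0.66) and of the Ceacam and Psg genes (1.84) were above those at gd16.5 (0.55 and 0.37). With CPM scaled over all 24 libraries, the summed Ceacam and Psg level at gd10.5 ran from 1721 to 10283 CPM in KO, with a median of 2597. In WT it ran from 2697 to 3072 CPM. The middle KO library was thus below all WT libraries, and only the highest was above them.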

How the data were processed

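The authors deposited raw counts of reads per gene for 24 libraries, whole numbers without normalization. Per the study's methods, stranded TruSeq mRNA libraries were trimmed (Trim Galore 0.6.4), aligned to GRCm38 (STAR 2.7.3a) and counted with featureCounts (Subread 2.0.0) at default settings, ignoring strand and reads of multiple origin. The 3 KO and 3 WT libraries of gd16.5 (22204068 to 36719360 counts) were compared in R 4.3.3 by edgeR 4.0.16 (quasi-likelihood F-test) after filterByExpr (minimum count 10) and TMM scaling, with Benjamini-Hochberg adjustment over 17071 genes. DESeq2 1.42.0 and limma 3.58.1 voom were alternatives. Replicates differed by more than counting error (chi-square per degree of freedom 22.9 to 59.7), with a biological coefficient of variation of 18.1%.

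The genes, lists and comparison were chosen with earlier results of these data known. Named genes were C1qtnf6, the 15 with the largest difference in each direction (unadjusted p under 0.05, groups that did not overlap, a mean of 1 CPM, no clone-like names) and list members at p under 0.05 or with high levels, and others were picked with their values in view. Replicate numbers are those of the labels. The methods were tested on simulated data. Alternatives were the size factors, filters, all 24 libraries together, a replicate block, Y-linked or yolk sac transcripts as covariate, raw library totals, bias-adjusted and robust quasi-likelihood, and each library left out. The yolk sac and raw total settings were chosen after seeing the data. Some members of the lists are counted but not reported here by name.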

Additional observations from a re-analysis of the deposited data

How the results depend on the processing

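At an adjusted p under 0.05 and 2-fold, 1 gene was found. The number was 50 without an expression filter, 2 with 24 libraries fitted together, 8 with the Y-linked covariate, 9 with the yolk sac covariate, 0 with robust empirical Bayes, 47 with DESeq2 on 6 libraries, 43 with DESeq2 on 24 libraries, and 0 to 5 with 1 library left out (5 without WT replicate 1, 2 without KO replicate 3, and 0 without WT replicate 2, WT replicate 3 or KO replicate 1). C1qtnf6 no longer passed under robust empirical Bayes (-6.45) and in those last 3 fits, and its log2 fold change lay between -7.35 and -6.01 with 1 library left out. Genes lower at an unadjusted p under 0.05 numbered 956, and 1688 without a filter, 467 with the Y-linked covariate, 609 with the yolk sac covariate, 2315 on raw library totals, 1491 by DESeq2 on 24 libraries, 433 without the libraries carrying yolk sac transcripts, and 515 to 1335 with 1 library left out (515 without KO replicate 2, 524 without WT replicate 3). Higher genes numbered 938, and 1665, 484, 577 and 474 under the first 4 of these settings, 440 without the libraries carrying yolk sac transcripts, and 485 to 1402 with 1 left out (485 without KO replicate 2, 618 without WT replicate 3). Genes with no overlap numbered 1495 below and 1511 above, 3348 and 735 on raw library totals, and 2430 above without a filter. The difference of gd16.5 from the other stages passed for 0 genes, for 13 without a filter, for 38 by DESeq2, and for 0 to 18 with 1 library left out (2 without WT replicate 1, 18 without KO replicate 3). The cause of these changes was not tested.

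The replicate block gave 1 gene, 1148 lower and 962 higher genes and -6.51 for C1qtnf6. The same-numbered KO and WT libraries correlated at 0.14, -0.39 and 0.51 in their deviations, and KO replicate 2 with WT replicate 1 at 0.69. With 3 libraries per group these values cannot show whether same-numbered libraries share a batch or litter, and the labels do not say. Across the alternatives, values of named genes kept the call in 3808 cases, lost it in 636, gained it in 99 and moved in 16. Some genes with small differences changed sign. Prl2b1 went from -0.02 to 0.26 without the libraries carrying yolk sac transcripts, and Csf1r from -0.06 to 0.12 without WT replicate 3. List medians stayed within the spread between libraries in 574 cases and moved in 105.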

Other observations

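Gm773, a predicted gene that the naming rule leaves out, had 72, 37 and 31 counts in the KO libraries and 1, 0 and 1 in the WT libraries. Taking 3 counts per library as the floor, it was at least 15.4-fold higher in KO (edgeR adjusted p = 0.18, DESeq2 adjusted p = 8.92e-05). It was named after its values had been seen.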
